A study of Mus musculus with 99 samples.

Results

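Cytosolic ribosomal protein genes encode the proteins of the large (Rpl) and small (Rps) subunits of the ribosome outside the mitochondrion. Members were taken by platform symbol: Rpl or Rps followed by a digit, or Rplp0, Rplp1, Rplp2 or Rpsa, without the Rps6k kinase genes. The rule found 57 genes among the 11725 genes with a probe set assigned to 1 symbol, and each gene was read from its brightest probe set. They comprised 31 large subunit genes, 17 small subunit genes, 6 paralogs (Rpl3l, Rpl22l1, Rpl39l, Rpl7l1, Rps27l and Rpl36al) and 3 symbols of pseudogenes (Rpl31-ps12, Rpl34-ps1 and Rps15a-ps6). Of these, 52 genes passed the brightness filter, a mean over 3.59 (the level that 40% of all probe sets did not reach), and belong to the 7513 genes tested. The other 5 were Rpl39l (mean 3.27), Rps2 (3.23), Rpsa (3.20), Rps15a-ps6 (3.13) and Rpl7 (3.02). Rplp0, Rplp1 and the paralog Rpl10l are not among the 57.

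The data are hearts of untreated male mice on a chow diet, with 1 HT_MG-430A array for each of 99 inbred strains, collected to map the genetics of transcript levels. The groups are 28 classical laboratory strains, 30 BXD strains (bred from C57BL/6J and DBA/2J), 15 AXB and 13 BXA strains (reciprocal crosses of A/J and C57BL/6J), 11 BXH strains (C57BL/6J and C3H/HeJ), the wild-derived strain CAST/EiJ, and B6cC3-1/KccJ, which entered no comparison. The growth protocol gives an age of 16 weeks for all mice. The age entries of single samples climb by 1 week from sample to sample in accession order and were not used. The labels do not say how many hearts went onto an array, and with 1 array per strain the spread between strains holds technical spread too. Among the BXD strains, BXD29-Tlr4<lps-2J>/J carries the named Tlr4 allele and BXD24/TyJ-Cep290<rd16>/J the named Cep290 allele. BXD24/TyJ-Cep290<rd16>/J with BXD24/TyJ, and AXB19/PgnJ with AXB19a/PgnJ and AXB19b/PgnJ, were averaged to 1 value per family in tests, giving 29 BXD, 13 AXB and 13 BXA families.

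A ribosome needs 1 copy of nearly every subunit protein, and cells keep the synthesis of these proteins in balance. Many of their messenger RNAs begin with a run of pyrimidines through which the mTOR kinase controls their translation, and S6, the product of Rps6, is the small subunit protein phosphorylated by the S6 kinases. Heart and skeletal muscle also make L3-like, the product of Rpl3l, which takes the place of L3 (Rpl3) at the catalytic core of the large subunit.

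All values are log2 values of the authors' normalised arrays. The array medians ran from 3.97 to 4.07. The cardiomyocyte marker list (7 genes on the array, such as Myh6 and Tnnt2) had a mean between 12.69 and 12.95 on every array, so the tissue label stood. In 45 of the 99 arrays the mean of a marker list of another organ exceeded that of the median array by more than 2 log2 units: airway in 30, liver in 18, fast skeletal muscle in 10, squamous epithelium in 7 and thymus in 2. Those arrays included 12 BXD, 7 AXB, 6 BXA, 8 BXH and 11 classical strains and CAST/EiJ. The Gapdh control probe sets, 3′ minus 5′, which report RNA integrity and labelling, were at -0.22 ± 0.085 (SD, n = 30) in BXD, -0.32 ± 0.092 (SD, n = 15) in AXB, -0.30 ± 0.069 (SD, n = 13) in BXA, -0.31 ± 0.11 (SD, n = 11) in BXH and -0.34 ± 0.083 (SD, n = 28) in the classical strains.

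Ribosomal protein transcripts were among the brightest in the heart. Of the 57 genes, 43 had a mean over all arrays above 8 and 32 above 10, a level passed by 3.64% of all genes. The brightest were Rps29 (mean 12.33), Rpl24 (12.32), whose product bridges the subunits, and Rpl23 (12.20). The stalk protein gene Rplp2 had a mean of 11.90, with classical strains between 11.68 and 12.06. A further 10 genes were under 5, including the subunit genes Rps6 (4.70), Rpl14 (3.97), Rpl21 (3.72), Rpl9 (3.67) and Rps2. A probe set's brightness depends on its probes, so these levels give no order of abundance between genes. In 20 genes with several probe sets, 19 of the 36 dimmer probe sets had a mean under 4, and the largest fall from the brightest to a dimmer one was 8.94 log2 units. Of the 57 brightest probe sets, 21 carry the suffix of probes shared by transcripts of 1 gene (a), 15 that of probes that may cross-hybridise (x) and 6 that of probes shared by transcripts of several genes (s). Signal from processed pseudogenes or close copies therefore cannot be told apart from the named gene.

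Between the 28 classical strains most ribosomal protein genes hardly varied. The median SD over the 52 tested members was 0.118 log2 units (jackknife SE over strains 0.00492), against 0.230 over all 7513 genes tested. Bright genes varied less in general. Among genes with a mean above 10, the median SD was 0.110 for 32 members and 0.138 for all 427 genes. An SD under 0.15 was found for 33 of 52 members (63.5%), and for 11.4% of all genes tested. Among genes with a mean above 10 the shares were closer, 29 of 32 members (90.6%) and 55.7% of all 427 genes. Of the other lists, translation partners (initiation and elongation factors and their associates, 33 tested) had a median SD of 0.158, mitochondrial ribosomal protein genes (70 tested) 0.190, ribosome biogenesis genes (47 tested) 0.220 and mTOR signalling genes (18 tested) 0.231.

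The steadiest members were Rpl24, with classical strains between 12.23 and 12.45 and an SD of 0.048, Rpl7a (SD 0.056), Rps29 (SD 0.058), Rpl4 (SD 0.058) and Rpl23 (SD 0.065). All 5 had a mean above 11.7 on a scale that ended at 13.695. Rpl24 was as steady in the panels: its SD was 0.049 over the BXD families and 0.050 over the AXB and BXA families.

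At the other end, 6 of 52 members had an SD of at least 0.25, against 41.3% of all genes tested: Rpl14 (0.74), Rpl41 (0.74), Rps6 (0.65), Rpl15 (0.43), Rpl13 (0.29) and Rpl22 (0.25). The next were Rpl7l1 (0.24), Rpl3l (0.23), Rps24 (0.22) and Rpl21 (0.20). In the plot of spread against level, Rpl41, Rpl14 and Rps6 lie highest among the members. Their SD was not compared with that of other genes of like brightness.

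**Figure D1:**
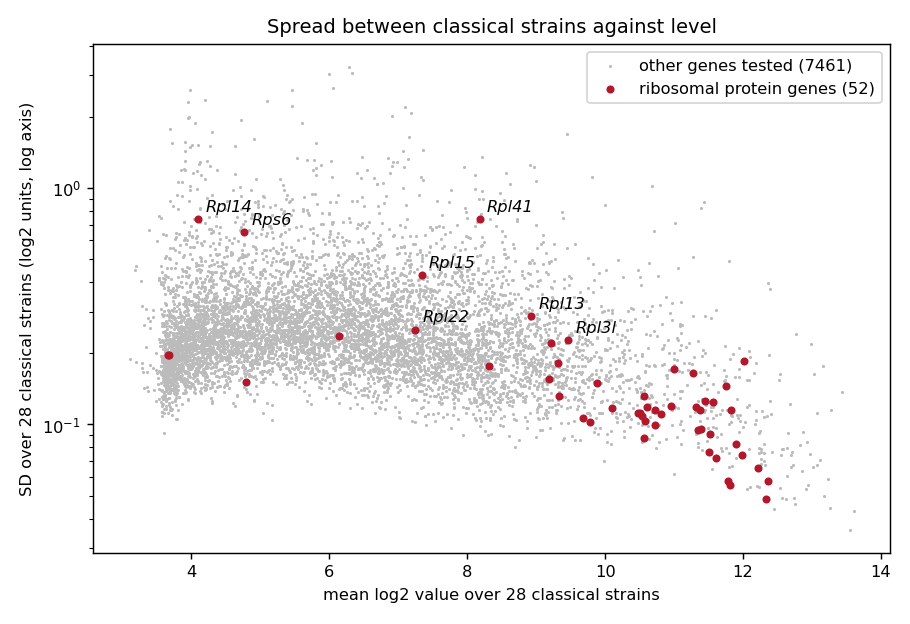
Each point is 1 of the 7513 genes tested. The x axis is the mean log2 value over 28 classical strains, the y axis (log scale) the SD over those strains in log2 units. Red points are the 52 ribosomal protein genes. Most lie at the right with an SD under 0.15, while Rpl14, Rpl41 and Rps6 reach 0.65 to 0.74.

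Some of these genes took separate levels. Sorting the 28 classical strains by level, a gap of at least 0.5 log2 units between neighbours, with 3 or more strains on each side, was found for 3 of 52 members and for 2.33% of all genes tested. This rule was chosen after the values were seen. The 3 members were Rpl41, Rpl14 and Rps6, and the next largest gap was that of Rpl15, at 0.31.

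Rpl41, which encodes a very short basic peptide of the large subunit, lay between 7.39 and 8.22 in 21 strains and between 9.17 and 9.55 in 7. The high strains were LG/J (9.17), RIIIS/J (9.23), AKR/J (9.33), SWR/J (9.43), BTBR T<+> tf/J (9.50), LP/J (9.53) and CE/J (9.55). No strain lay in between, and the gap was 0.95. The other 3 probe sets of Rpl41 stayed at or below 4.09 in every classical strain, so they could not show the same pattern or its absence.

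Rpl14, a large subunit gene, lay between 3.35 and 4.02 in 21 strains and between 4.85 and 5.72 in 7. The high strains were PL/J (4.85), BUB/BnJ (4.95), AKR/J (5.12), NON/ShiLtJ (5.41), C58/J (5.48), CBA/J (5.58) and DBA/2J (5.72). The low level was close to the dim end of the array, and the gap was 0.83.

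Rps6 lay between 3.39 and 4.26 in 10 strains and between 4.90 and 5.56 in 18. Its low level, like that of Rpl14, was close to the dim end of the array. The low strains were BALB/cJ (3.39), A/J (3.80), SEA/GnJ (3.85), DBA/2J (3.86), LP/J (3.92), I/LnJ (4.01), BTBR T<+> tf/J (4.11), LG/J (4.14), CE/J (4.18) and 129X1/SvJ (4.26). The second Rps6 probe set was dim in all classical strains, between 2.91 and 3.42, too dim to show such a split or its absence.

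Rpl15, a large subunit gene, was between 6.81 and 7.61 in 21 strains and between 7.92 and 8.08 in 7: NZW/LacJ (7.92), LP/J (7.93), DBA/2J (7.97), 129X1/SvJ (7.98), C3H/HeJ (7.998), KK/HlJ (8.06) and CBA/J (8.08). The 4 genes did not split the strains alike. DBA/2J, for example, was in the high group for Rpl14 and Rpl15 and in the low group for Rps6 and Rpl41. These differences cannot be told apart from differences in the strains' sequence under the probes.

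The start regions of these 4 genes, and of the steady Rpl24, are shown because the pyrimidine run is the feature that ribosomal protein transcripts are known to share. Each line gives 40 bases before and 20 bases after an annotated RefSeq start (GRCm38.p6), and capitals mark a run of at least 8 pyrimidines that overlaps the 5 bases on either side of the start.
Rps6, chr4:86857348-86857407, minus strand: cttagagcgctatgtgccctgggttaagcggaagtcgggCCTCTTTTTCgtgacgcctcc
Rpl14, chr9:120571477-120571536, plus strand: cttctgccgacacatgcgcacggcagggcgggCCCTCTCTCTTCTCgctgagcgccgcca
Rpl15, chr14:18270967-18271026, minus strand: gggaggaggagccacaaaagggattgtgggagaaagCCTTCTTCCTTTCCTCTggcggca
Rpl41, chr10:128549149-128549208, minus strand: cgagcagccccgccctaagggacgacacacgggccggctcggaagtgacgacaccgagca
Rpl24, chr16:55966235-55966294, plus strand: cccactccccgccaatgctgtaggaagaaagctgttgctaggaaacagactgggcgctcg

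The run was 10 bases long at Rps6, 14 at Rpl14 and 17 at Rpl15. No run of at least 8 overlapped the annotated start of Rpl41 or Rpl24 in this window. A shorter run, or a run at a start other than the annotated ones, is not counted by this rule. Of the 57 genes, 47 matched the RefSeq promoter table, with 55 starts among 32851. A run of at least 8 pyrimidines at the start was found for 17 of the 55 starts (30.9%) and 9.72% of all starts. The letters CCGGAAG, searched on both strands of the 300 bases around the start, were in 22 of the 55 (40%) and 8.86% of all starts. TATAAA on both strands of the same bases was in 10.9% and 13.6%. CTTTCC on the sense strand, within 20 bases of the start, was in 12.7% and 1.95%, and it can overlap a pyrimidine run. Whether a given strain differs from these reference letters was not tested.

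The recombinant inbred panels show the same genes on a different set of mice. Each family of a panel carries either parent's copy of a locus, so a gene whose 2 parents differ can appear at 2 levels. A difference of at least 0.5 log2 units between the single parental arrays was found for 3 of 52 members between DBA/2J and C57BL/6J (background 22.2%), 3 of 52 between A/J and C57BL/6J (background 13.4%) and 4 of 52 between C3H/HeJ and C57BL/6J (background 22.0%). In the BXD families the median SD was 0.590 over the 3 members whose parents differed and 0.118 over the other members. The corresponding values were 0.510 and 0.107 in the AXB and BXA families and 0.294 and 0.133 in the BXH strains.

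Rps6 was at 5.29 in C57BL/6J, 3.86 in DBA/2J and 3.80 in A/J. Of 29 BXD families, 10 lay between 3.65 and 4.50 and 19 between 4.79 and 5.35. Of 26 AXB and BXA families, 13 lay between 3.57 and 4.38 and 13 between 4.65 and 5.30. The value of 4.65 is the mean of the 3 AXB19 arrays, which ran from 3.87 to 5.31, and without that family the upper 12 lay between 4.79 and 5.30. In the BXH panel, whose other parent C3H/HeJ was at 5.45, all 11 strains lay between 4.8045 and 5.54. The low level was thus seen in panels with a low parent and in no BXH strain.

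Rpl15 was at 6.95 in C57BL/6J, 7.97 in DBA/2J, 7.998 in C3H/HeJ and 7.12 in A/J. The BXD families fell into 12 between 6.74 and 7.28 and 17 between 7.49 and 8.26. The BXH strains fell into 5 between 6.88 and 7.08 and 6 between 7.87 and 8.16. All AXB and BXA families were between 6.74 and 7.32. The BXH gap, at 11 strains, was the cleanest, with no strain within 0.25 of the midpoint between the parents.

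Rpl14 was at 3.61 in C57BL/6J and 5.72 in DBA/2J. Among BXD families, 22 lay between 3.40 and 4.07 and 7 between 4.97 and 5.76. The AXB and BXA families (3.49 to 3.98) and BXH strains (3.52 to 4.10), whose other parents were at 3.95 and 3.80, stayed low. Rpl41 had like levels in all 4 parents, between 7.59 and 7.79. It showed no upper level in any panel, with BXD families between 7.23 and 7.84, AXB and BXA families between 7.26 and 7.83 and BXH strains between 7.41 and 7.89.

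Rps14, a gene of the small subunit's platform, and Rpl13, a large subunit gene, differed between A/J and C57BL/6J. Rps14 was at 11.57 in A/J and 12.11 in C57BL/6J. The AXB and BXA families ran from 11.44 to 12.04 (median 11.86, SD 0.20), while the BXD families (11.80 to 12.10, SD 0.072) and BXH strains (11.99 to 12.23, SD 0.080) held narrow ranges. In the classical strains 6 were between 11.57 and 11.78 and 22 at 11.91 or above. The Rps14 range in the panel covered both parental levels, with 13 families on each side of the midpoint. The family nearest below it, at 11.83, was the mean of the 3 AXB19 arrays, which ran from 11.59 to 12.05. Without that family, 12 lay between 11.44 and 11.71 and 13 between 11.88 and 12.04.

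Rpl13 was at 7.95 in A/J, the lowest of the classical strains, and 8.73 in C57BL/6J. The AXB and BXA families ran from 6.91 to 9.18 (median 8.74, SD 0.51), and 7 of 26 were below the midpoint (6 of 25 without the AXB19 family). The BXD families held between 8.65 and 9.38. The lowest arrays were AXB19/PgnJ (6.81) and BXA7/PgnJ (6.91), about 1 log2 unit below the A/J array. Both carried markers of another organ, and their Gapdh values were -0.43 and -0.32. The part of either in these low values was not tested.

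The parental difference of Rpl13 between C57BL/6J and C3H/HeJ was not seen in the BXH strains. Rpl13 was at 9.33 in C3H/HeJ, but 10 of 11 BXH strains were at or below the midpoint of 9.03, and the panel ran from 8.61 to 9.04. Rps24, of the small subunit, was at 9.04 in C57BL/6J and 9.63 in C3H/HeJ. Its BXH strains covered both levels, with 3 above the midpoint, between 9.52 and 9.84, and 8 between 8.84 and 9.32. The paralog Rpl7l1 was at 6.45 and 5.89, and the 11 strains spread from 5.86 to 6.78, across both parental levels. Of these, 8 were within 0.25 of the midpoint of 6.17. That window covers most of the interval between the parents, so the count cannot show whether the strains took 2 levels. Each parent was read from 1 array, so a parental difference of this size includes array error.

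**Figure D2:**
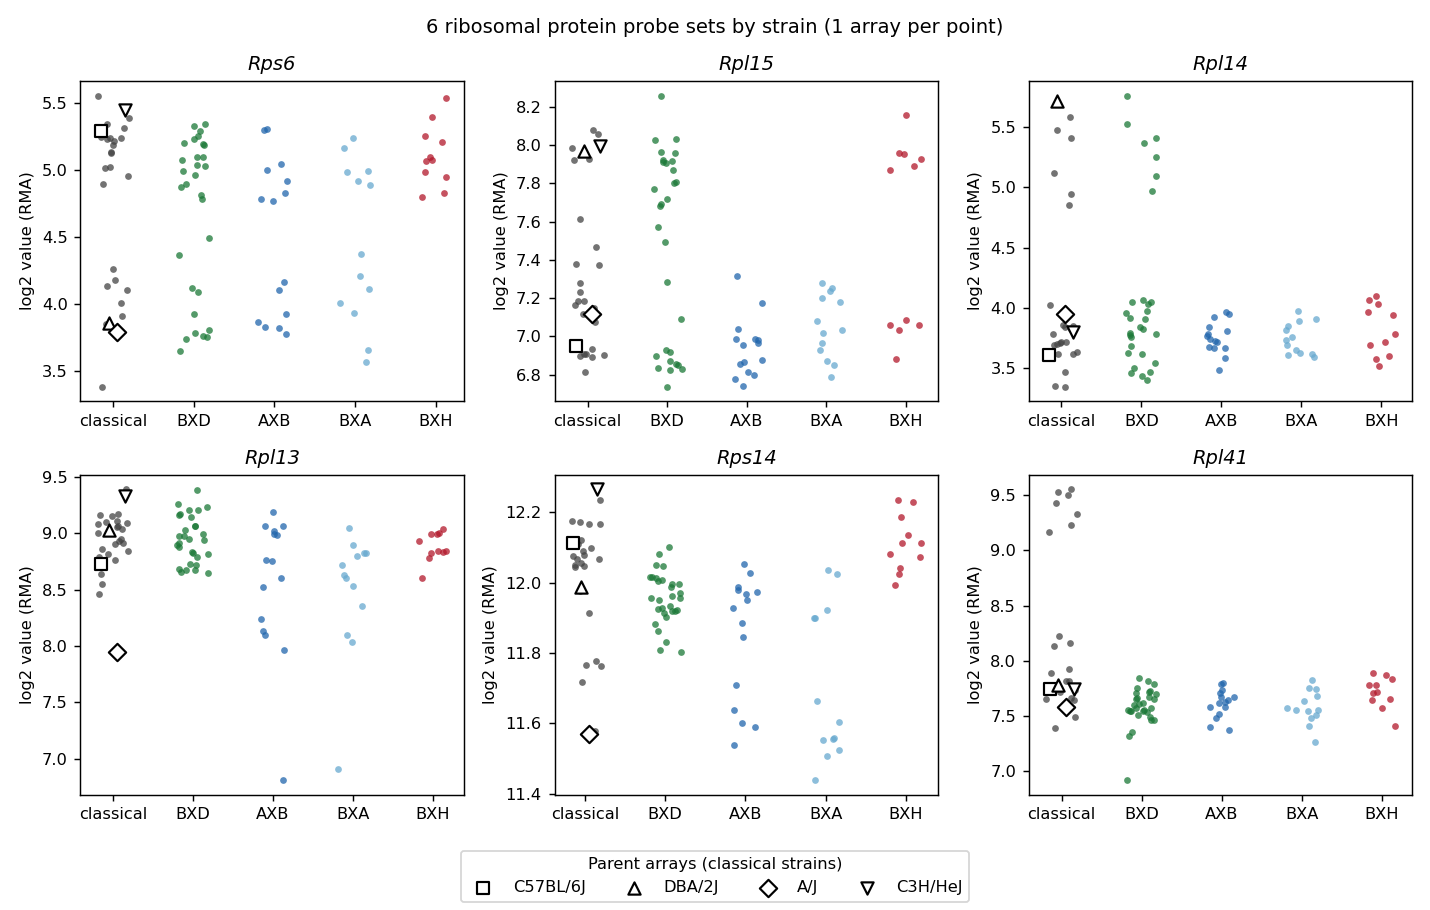
Log2 values of 6 ribosomal protein probe sets, 1 point per array, for the classical strains and the 4 panels, with the 4 parental arrays as open symbols. Points are spread sideways at random. Rps6 shows 2 levels in the classical strains and in panels whose parents differ, and 1 level in BXH. In the BXD families its lower values reached 4.50 and the upper began at 4.79. Rpl15 shows 2 clearly separate levels in BXH and 1 level in AXB and BXA. Its gap in the classical strains (0.31) was under 0.5, and in the BXD families the lower values reached 7.28 and the upper began at 7.49. Rpl41 shows its upper level, above 9, in 7 classical strains and in no panel strain.

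Near-isogenic strains were set side by side. The 3 strains AXB19a/PgnJ, AXB19/PgnJ and AXB19b/PgnJ had Rps6 at 5.31, 4.77 and 3.87, Rps14 at 12.05, 11.84 and 11.59 and Rpl13 at 7.96, 6.81 and 8.52. Their Rps6 and Rps14 values thus reached from 1 parental level to the other. Whether the 3 arrays are what their labels name was not tested, and their family mean is not the level of any of them. In the pair BXD24/TyJ-Cep290<rd16>/J and BXD24/TyJ, Rps6 was at 3.79 and 4.37, Rpl15 at 7.69 and 7.96 and Rpl14 at 3.44 and 3.77, on the same side of each midpoint. Pooled over both families, the SD within a family was 0.64 for Rps6, 0.71 for Rpl13 and 0.20 for Rps14. The median over the 52 members was 0.132, against 0.200 over all genes tested.

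The BXD panel was compared with the AXB and BXA panels because they share the C57BL/6J parent and differ in the other. At an adjusted p under 0.05 (limma, Benjamini-Hochberg over 7513 genes), 8 of 52 members (15.4%) differed, against 14.6% of all genes. Of these, 4 were higher in BXD (background 8.59%) and 4 were lower (background 6.04%), so the members' share was close to that of all genes. The median difference was -0.015 over the members and 0.013 over all genes, with 21 members positive and 31 negative.

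The 4 genes higher in BXD each had a parental difference of at least 0.5 in 1 of these panels. Rpl15 ran from 6.74 through a median of 7.68 to 8.26 in BXD and from 6.74 through 6.98 to 7.32 in AXB and BXA. The group means were 7.46 and 7.002, a difference of 0.46 (SE 0.10, limma adjusted p = 0.000965, 1.38-fold), and the ranges overlapped at the lower BXD level. Rpl13 had means of 8.94 and 8.57, a difference of 0.36 (SE 0.10, limma adjusted p = 0.00971). Rps14 had means of 11.96 and 11.78, a difference of 0.18 (SE 0.041, limma adjusted p = 0.00133). Rpl14 had a median of 3.91 in BXD and 3.75 in AXB and BXA. Its means differed by 0.39 (SE 0.14, limma adjusted p = 0.0489), with 7 BXD families at 4.97 or above. Every alternative but 1 in which it was tested ended this call. Rps6, low in both DBA/2J and A/J, had a difference of 0.22 (SE 0.15, limma adjusted p = 0.337) and did not pass.

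The genes lower in BXD moved by small amounts with broad overlap. Rpl22, whose product binds RNA beside its place in the large subunit, ran from 6.85 to 7.46 (median 7.18) in BXD and from 6.96 to 7.66 (median 7.37) in AXB and BXA. Its means differed by -0.16 (SE 0.045, limma adjusted p = 0.0119). Its paralog Rpl22l1 differed by -0.015 (SE 0.055) and did not pass. Rps13 differed by -0.12 (SE 0.038, limma adjusted p = 0.0217) and Rps9 by -0.12 (SE 0.036, limma adjusted p = 0.0192), both of the small subunit. Rpl12, of the stalk base, differed by -0.11 (SE 0.033, limma adjusted p = 0.0119). For all 8 called members the DBA/2J array differed from the A/J array in the same direction, as it did for 88.1% of all 1099 called genes.

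**Figure D3:**
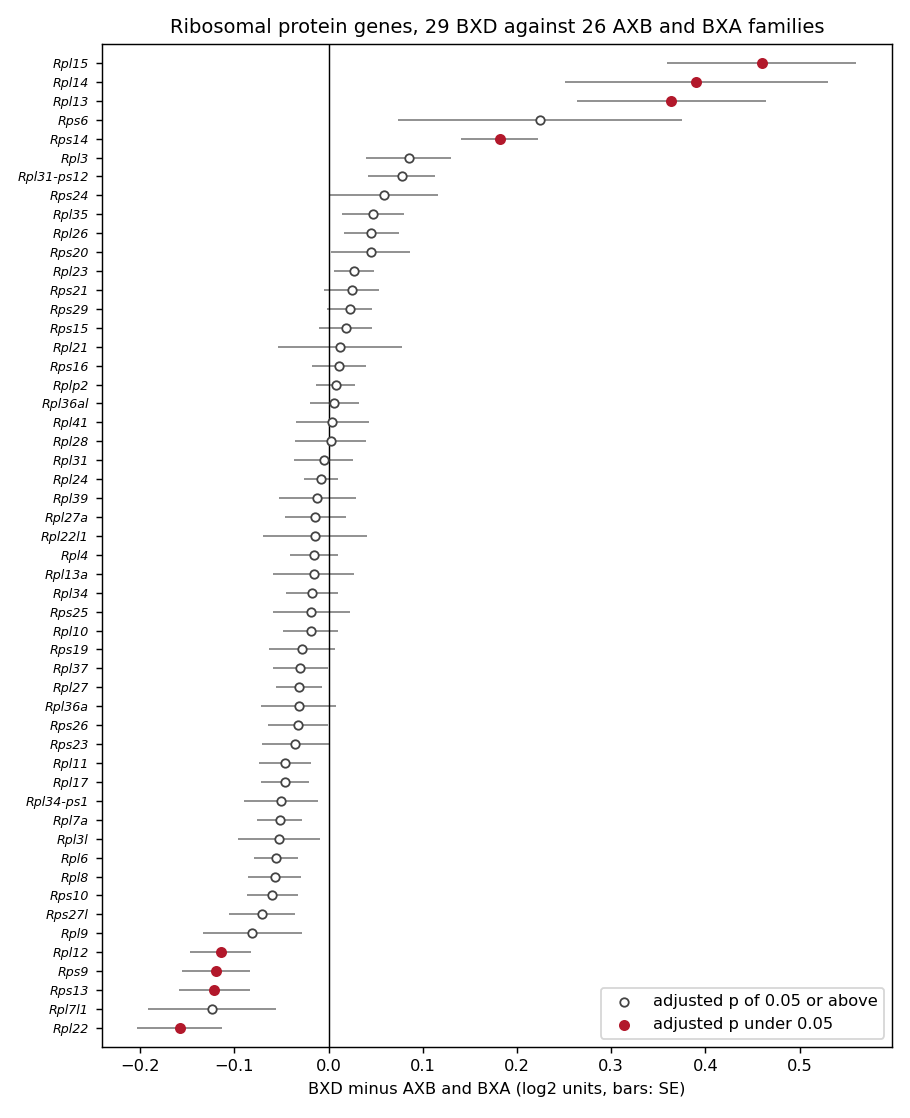
Difference in mean log2 value between 29 BXD families and 26 AXB and BXA families for the 52 tested members, with bars of 1 SE from limma. Red points have an adjusted p under 0.05. Rpl15 (0.46), Rpl14 (0.39), Rpl13 (0.36) and Rps14 (0.18) lie to the right and Rpl22 (-0.16) at the bottom, with most members within 0.1 of 0.

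The Gapdh 3′ minus 5′ values also differed between these panels, at -0.22 in BXD and -0.32 and -0.30 in AXB and BXA. With that value as a covariate, 2 of 52 members passed (3.85%, against 5.39% of all genes), Rpl15 and Rps14. Among the 6 that no longer passed, the difference was 0.34 for Rpl13 in place of 0.36, -0.11 for Rps9 in place of -0.12, -0.12 for Rpl22 in place of -0.16 and -0.062 for Rps13 in place of -0.12. Without the arrays that carried markers of another organ (17 BXD and 15 AXB and BXA families left), 5 members passed (9.62%, against 8.59% of all genes), of which Rpl15, Rpl13 and Rpl22 were among the 8.

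Other genes of translation were read beside the ribosomal proteins in the BXD comparison. Over all genes tested, 8.59% were higher in BXD and 6.04% lower, the background for each list. Of 33 translation partners, 8 were lower in BXD and 1 higher (median difference -0.036). The lower ones included Eif3m (-0.19, SE 0.059), an initiation factor subunit, Etf1 (-0.15, SE 0.043) and Gspt1 (-0.13, SE 0.045), which release the finished chain, and Eif2s2 (-0.15, SE 0.048), a subunit of the factor that brings the initiator tRNA. Nap1l1, a histone chaperone gene, was higher by 0.11 (SE 0.037). Of 47 ribosome biogenesis genes, 3 were lower and 1 higher: Utp18 (-0.75, SE 0.13) of the small subunit processome, Polr1a (-0.51, SE 0.16), the largest subunit of RNA polymerase I, Emg1 (-0.17, SE 0.035), and Rrp1 (0.11, SE 0.031). Of 18 mTOR signalling genes, Mtor (0.20, SE 0.050), Tsc1 (0.18, SE 0.056) and Akt1 (0.17, SE 0.056) were higher and Rragd (-0.29, SE 0.081) lower. Of 70 mitochondrial ribosomal protein genes, 4 were higher and 7 lower, from Mrpl15 (-0.90, SE 0.093) to Mrps12 (0.62, SE 0.076). These lists were not refitted with the Gapdh covariate.

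The reciprocal AXB and BXA panels carry alleles of the same parents. With 13 families each, limma called 0 of 52 members and 0.0% of all genes. An unadjusted p under 0.05 was found for 3 members (5.77%) and 10.5% of all genes. The 3 were Rpl34-ps1 (0.13, SE 0.059), Rpl39 (0.12, SE 0.055) and Rpl13a (0.11, SE 0.054), each with a limma adjusted p of 0.45 or above. They are named for that count, after their values were seen. The difference was positive for 39 members (75.0%) and negative for 13, with a median of 0.023. Over all genes 54.5% were positive, with a median of 0.011. Without arrays that carried markers of another organ, the members' median was -0.0094, with 23 positive (44.2%, against 52.3% of all genes) and 29 negative.

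The BXH strains were compared with the classical strains, which include both BXH parents. No member of 52 passed, against 0.293% of all genes (0.0799% higher and 0.213% lower, limma, 11 and 28 arrays), and 3 (5.77%, against 11.3% of all genes) had an unadjusted p under 0.05. These 3, named after their values were seen, were Rpl41 (-0.47, SE 0.22), for which the 7 high strains are all classical, Rpl36a (-0.15, SE 0.054) and Rpl4 (0.069, SE 0.032). The median difference was 0.0045 over the members and -0.011 over all genes. Without arrays that carried markers of another organ, 3 BXH and 17 classical arrays were left. The members' median was then -0.046, against -0.0072 over all genes, with 15 positive (28.8%, against 47.9% of all genes) and 37 negative. None of the translation, biogenesis, mTOR or mitochondrial ribosomal lists had a called gene in this comparison or between AXB and BXA.

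CAST/EiJ belongs to the castaneus subspecies and was read from 1 array, so its differences have no replicate check. Counted as outside the range of all 28 classical strains and at least 0.5 log2 units from their median, 4 of 52 members (7.69%) differed, against 19.9% of all genes tested. By any distance, 14 of 52 members (26.9%) were outside the range, close to the 27.5% of all genes. Within 0.25 of the classical median lay 36 members (69.2%) and 45.1% of all genes. That array carried markers of another organ.

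Rps15, of the small subunit's head, was at 9.56 in CAST/EiJ, while the classical strains ran from 11.18 to 11.63 (median 11.36). The second Rps15 probe set gave 11.31 in CAST/EiJ, inside its classical range of 11.08 to 11.59. The low Rps15 reading thus rested on 1 of 2 probe sets of like brightness. Rpl12 was at 9.27 against a classical range of 9.89 to 10.40, and Rps9 at 10.06 against 10.37 to 10.89. Each of them has 1 probe set with its symbol. That of Rps9 carries the suffix of probes shared by transcripts of several genes. Rpl15 was at 8.25, just above the highest classical strain (8.08) and on the side of the high strains. Rpl41, at 8.68, fell in the gap between the classical levels. A sequence difference under a probe cannot be told apart from a transcript difference in these values.

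**Figure D4:**
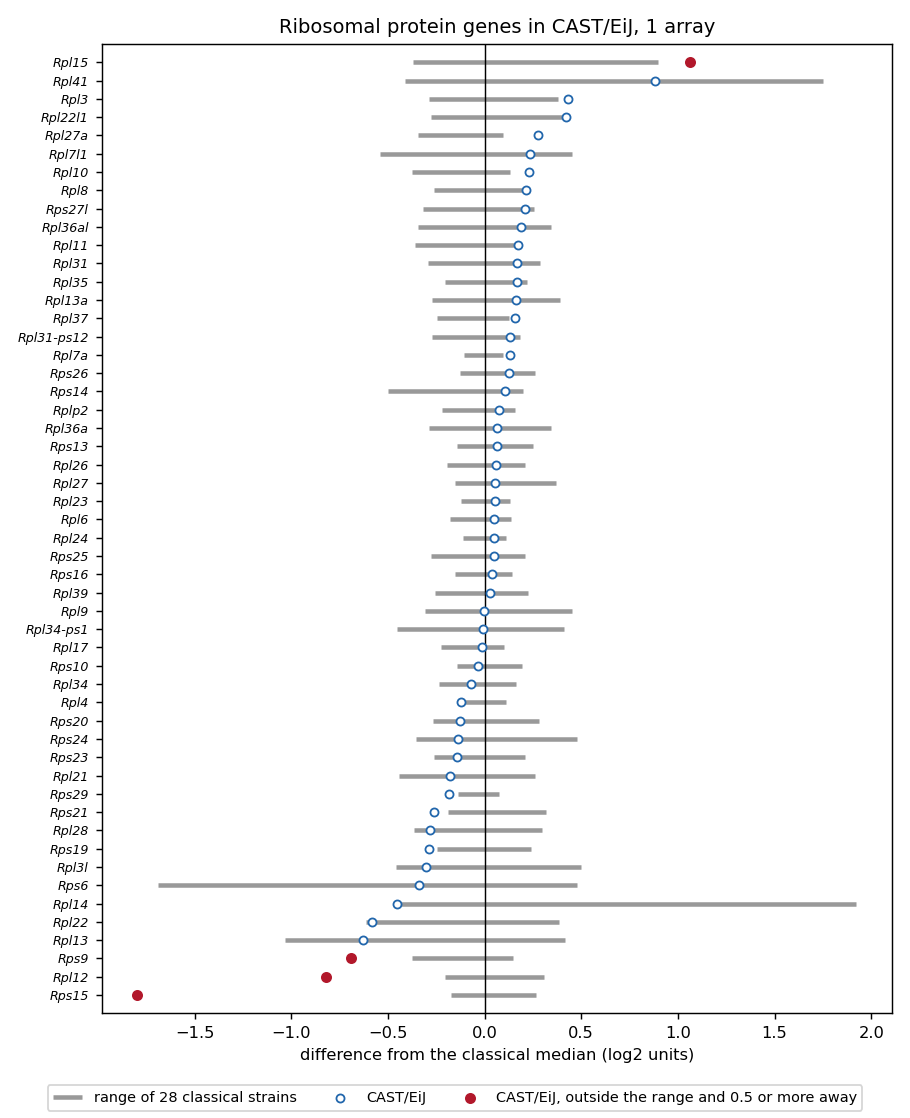
For each of the 52 tested members, the grey bar is the range of 28 classical strains and the circle the single CAST/EiJ array, both as log2 difference from the classical median. Red circles lie outside the range and 0.5 or more away: Rps15 at -1.80, Rpl12 at -0.82, Rps9 at -0.69 and Rpl15 at 1.06.

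The paralog pairs differed in how they were expressed. Rpl3l ran from 8.99 (BALB/cJ) through a median of 9.45 to 9.95 (NZB/BlNJ) in the classical strains (SD 0.23), and Rpl3 from 10.67 through 10.96 to 11.34 (SD 0.17). Strains with more Rpl3l tended to have less Rpl3: NZB/BlNJ had 9.95 and 10.78, and BALB/cJ had 8.99 and 11.24. SWR/J went the other way, with the highest Rpl3 of the classical strains (11.34) and Rpl3l at 9.76. Over the 28 classical strains Pearson's r was -0.50 (permutation p = 0.0076, adjusted over 17 relations 0.0646) and Spearman's rho was -0.58 (permutation p = 0.00148, adjusted 0.0252). The tests were two-sided with 100000 permutations, and the rho passed the adjustment while r did not. Leaving out the 2 strains farthest from the median of Rpl3l, r was -0.38.

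The sign was the same in each panel, with none passing on its own. In the 29 BXD families r was -0.39 (permutation p = 0.0352, adjusted 0.175) and rho -0.36 (adjusted 0.22). In the 26 AXB and BXA families r was -0.40 (adjusted permutation p 0.175) and rho -0.34 (adjusted 0.243), and r was -0.22 without the 2 farthest families. In the 11 BXH strains r was -0.54 (adjusted permutation p 0.237) and rho -0.46 (adjusted 0.328). In the 17 classical strains without markers of another organ, r was -0.40 (permutation p = 0.113) and rho -0.54 (permutation p = 0.0257), and r was -0.14 without the 2 farthest strains. The highest Rpl3 of all arrays was that of AXB19/PgnJ, 11.54, with Rpl3l at 9.08, and that array carried markers of another organ.

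The mean of the cardiomyocyte markers moved with Rpl3l over the classical strains, with r = 0.57 (permutation p = 0.00147, adjusted 0.025) and rho = 0.44 (adjusted 0.155). Without the 2 strains farthest from the median of Rpl3l, r was 0.49. For Rpl3 the same markers gave r = -0.37 and rho = -0.39 (adjusted permutation p 0.175 and 0.22). The mean of these markers ran only from 12.69 to 12.95 over all 99 arrays, on a scale that ended at 13.695. The part of the cardiomyocyte share in the relation between Rpl3l and Rpl3 was not tested, and in whole hearts fewer cells of a type and less RNA per cell cannot be told apart. Of the other 10 marker lists and the Gapdh value, none had an adjusted p under 0.05 with Rpl3l. The genes most like Rpl3l over the 28 strains, by Spearman's rho, were Ryr2 (0.76), the calcium release channel of the sarcoplasmic reticulum, Cmya5 (0.75), a muscle protein gene, Slc37a1 (0.69), Rit1 (0.68) and Plxnb3 (0.60). Ryr2 is 1 of the cardiomyocyte markers, and the relation of Rpl3l to the markers without Ryr2 was not tested.

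**Figure D5:**
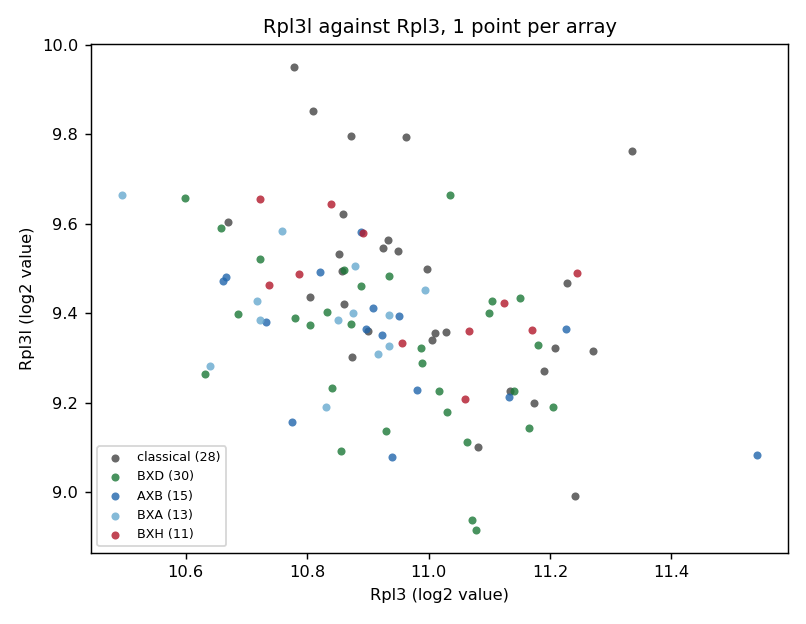
Log2 value of Rpl3l (y axis) against Rpl3 (x axis), 1 point per array, coloured by group with the number of arrays. Arrays with high Rpl3 tend to have low Rpl3l. The classical strains, in grey, run from NZB/BlNJ at the top (9.95) to BALB/cJ near the bottom (8.99).

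Of the other paralogs, Rpl7l1 had an SD like that of Rpl3l, with classical strains between 5.58 and 6.57 (SD 0.24). Rpl22l1 ran from 9.02 to 9.73 in the classical strains (median 9.30) and Rpl22 from 6.62 to 7.62 (median 7.23). Rps27l, known as a target of p53, ran from 8.88 to 9.45 (SD 0.16) and Rpl36al from 9.53 to 10.22 (SD 0.15). Rpl39l, known from the testis, was dim on all arrays, with classical strains between 2.98 and 3.75. Rpl39 had a mean of 11.50 on its brightest probe set. Its other probe set was as dim as that of Rpl39l, with a mean of 3.42 and classical strains between 3.21 and 3.75. The 2 genes therefore cannot be ranked by these levels. Read from their brightest probe sets, none of Rpl3l, Rpl22l1, Rpl7l1, Rps27l and Rpl36al passed in any of the 3 tested comparisons. With the mean of all probe sets, Rpl7l1 passed between BXD and the AXB and BXA panels.

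Levels of bright members correlated weakly from strain to strain. Among the 43 members with a mean above 8, the median Spearman's rho between pairs over the 28 classical strains was 0.20, against 0.012 for all 1607 genes above that level. It was 0.14 over all 52 tested members and 0.14 over the 70 mitochondrial ribosomal protein genes. These pairs share arrays and normalisation, so the value is a description. By member, the median rho with the other members was lowest for Rpl3l (-0.14), Rps27l (-0.063) and Rpl22l1 (-0.0057), and highest for Rps23 (0.36) and Rpl26 (0.36). The lowest are paralogs, but the paralog Rpl36al was at 0.23, so a low rho was not shared by all paralogs.

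As a group the 43 bright members shifted little between arrays. The median deviation from each gene's median over all arrays ran from -0.18 in BXD28/TyJ to 0.20 in BXH9/TyJ, both of which carried markers of another organ. The group medians were 0.038 in the classical strains, 0.050 in BXH, -0.0070 in AXB, -0.022 in BXD and -0.041 in BXA. These medians lay closer together than the arrays within any of these groups. The sample titles are numbers, from 3 to 394 in BXH and from 40 to 456 in the classical strains. In BXD, AXB and BXA they lay between 473 and 683, and the labels do not say what they stand for. A shift of BXH and the classical strains against BXD, AXB and BXA cannot be told apart from one between these number ranges.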

How the data were processed

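The members and gene lists were chosen with earlier results of these data known. Per the submitters' processing notes the deposited log2 values were made with RMA (and GCOS). The authors' table holds 22416 probe sets, 89 of them controls. By the platform annotation, 17783 had 1 gene symbol, 284 several (not used, 7 with a member among them) and 4349 none. Through gene IDs 17759 matched RefSeq, and 0 symbols changed. The brightest probe set by mean over all 99 arrays stood for a gene. R 4.3.3 with limma 3.58.1 tested the genes that passed the filter, called at an adjusted p under 0.05. The test was tried on simulated data first. Each value rests on 1 array per strain, and the number of arrays limits the precision.

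Named members were those called, the 10 with the largest and 5 with the smallest SD, the paralogs with their parent genes, those counted for CAST/EiJ or between parents, the stalk genes, Rpsa and Rps6. Of the other lists, up to 5 called genes were named. Alternatives were another filter on dim genes, the mean of all probe sets, the Gapdh and title number covariates, all groups in 1 fit, each array on its own, ranges of title numbers, no arrays with markers of another organ, and, chosen after seeing the data, no AXB19 family.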

Additional observations from a re-analysis of the deposited data

How the results depend on the processing

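The number of members called between BXD and the AXB and BXA panels was 8. It became 2 with the Gapdh covariate, 5 without arrays carrying markers of another organ, 4 in the lower and 1 in the upper range of title numbers, the last 3 with fewer arrays. Under the other 7 alternatives it was 7 or 8. With the mean of all probe sets it was 8, but Rpl7l1 passed in place of Rpl14. Rpl15 passed under every alternative run. Rpl14 kept its call with each array on its own and lost it elsewhere, with adjusted p-values between 0.0512 and 0.361 where it was tested. None of the 8 changed sign. The counts of 0 between AXB and BXA and between BXH and the classical strains stayed at 0 under all alternatives run. The median SD of members was 0.134 without arrays carrying markers of another organ and 0.125 after centring each array on its median. At a threshold of 1 log2 unit, 2 members in place of 4 counted for CAST/EiJ, and 3 in place of 7 differed between parents of any panel. No paired analysis was possible because the labels give no replicate numbers and each strain has 1 array. The dimmest members are limited by low signal, since values near 3.59 are close to the dim end of the arrays.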
